A study of Mus musculus with 6 samples.

Results

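Type I interferon-stimulated genes (ISGs) were followed in 6 mouse liver tumours, 3 from mice given TSDP and 3 from mice left untreated. The 35 genes were taken from a fixed list by symbol, each matched 1 Ensembl gene, and all 35 passed the filter on low counts, out of 17423 genes tested and 55536 in the count table. TSDP is the name given in the labels to a nanoparticle that carries DNIC, a dinitrosyl iron complex that releases nitric oxide, together with sorafenib, a kinase inhibitor used against advanced hepatocellular carcinoma. All 6 mice were male C3H animals aged 6 to 8 weeks that received 1000000 cells of HCA-1, a line of mouse liver carcinoma, under the liver capsule. TSDP mice (libraries TSDP 1, 2 and 5) were injected intravenously 6 times between day 10 and day 23, and Control mice (libraries Control 3, 4 and 5) had no treatment. Whether an empty carrier was given to Control mice is not stated in the labels. Tumours were taken on day 24 and their RNA was sequenced in bulk, so tumour cells and host cells are mixed in each library.

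Type I interferons bind the receptor made of IFNAR1 and IFNAR2 on almost every cell. The kinases JAK1 and TYK2 then activate STAT proteins, among them STAT2, which works with IRF9 in a complex that binds the interferon-stimulated response element (ISRE) in the promoters of ISGs. Their products sense viral RNA and DNA, block translation, degrade RNA and modify other proteins, and they serve in tumours as a readout of interferon reaching the tissue.

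The ISRE was looked for in the promoters of the members as its core letters, GAAA, any 2 bases and GAAA again, on either strand, within the 250 bases before each start in RefSeq promoters of build GRCm38.p6. The table held promoters for 25 of the 35 genes, 28 promoters in all, and 10 of the 28 (35.7%) held the letters, against 2.98% of all 32851 promoters. The palindromic letters TTCNNNGAA of the interferon gamma-activated site stood in 4 of the 28, against 7.02% of all promoters. The sequences below come from the C57BL/6J reference and not from the C3H mice studied here. They are shown because they carry the sequence feature that the complex with STAT2 and IRF9 is known to read, and the ISRE core is in capitals in each. The Isg15 stretch lies at chr4:156200845-156200926 (minus strand) and holds 3 overlapping cores. The Ifit1 stretch lies at chr19:34640755-34640843 (plus strand), that of Ifit3 at chr19:34583343-34583446 (plus strand) and that of Ifit3b at chr19:34607739-34607842 (plus strand). The Oas1a stretch lies at chr5:120907526-120907575 (minus strand), that of Rsad2 at chr12:26456533-26456602 (minus strand) and that of Stat2 at chr10:128270248-128270315 (plus strand).
Isg15: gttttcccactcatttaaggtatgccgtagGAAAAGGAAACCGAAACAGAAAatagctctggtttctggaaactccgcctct
Ifit1: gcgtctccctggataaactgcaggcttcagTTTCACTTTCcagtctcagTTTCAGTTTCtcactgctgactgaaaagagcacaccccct
Ifit3: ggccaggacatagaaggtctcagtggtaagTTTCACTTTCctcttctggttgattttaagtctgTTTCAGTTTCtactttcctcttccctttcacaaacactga
Ifit3b: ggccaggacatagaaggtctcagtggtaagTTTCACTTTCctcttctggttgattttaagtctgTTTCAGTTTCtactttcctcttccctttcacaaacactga
Oas1a: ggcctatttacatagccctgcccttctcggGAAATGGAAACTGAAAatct
Rsad2: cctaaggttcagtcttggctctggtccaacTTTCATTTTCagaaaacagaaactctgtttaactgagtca
Stat2: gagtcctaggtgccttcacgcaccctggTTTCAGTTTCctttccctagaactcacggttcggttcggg
The 104 bases shown for Ifit3 and Ifit3b were letter for letter the same. Capitals in TTTC form are the core read on the other strand.

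Total counts ran between 32130808 and 38953397 per library. Control 3 stood apart in its hepatocyte transcripts. The hepatocyte marker list summed to 40733, 76856 and 25239 CPM in TSDP 1, 2 and 5, against 153, 28210 and 4780.2 CPM in Control 3, 4 and 5. Albumin (Alb), the main protein made by hepatocytes, had 17150, 32440 and 11310 CPM in TSDP 1, 2 and 5, against 62.7, 10350 and 1993 CPM in Control 3, 4 and 5, so this marker of the labelled tissue was nearly missing from Control 3. CPM are counts per 1000000, scaled with trimmed-mean (TMM) factors. Control 3 also had the most haemoglobin, with Hba-a1 at 281, 21.3 and 6.26 CPM in Control 3, 4 and 5 and at most 15.7 CPM in a TSDP library.

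No ISG passed the test between TSDP and Control tumours, and the members lay close to no change in the middle. Of the 35, 0 were called higher and 0 lower at an edgeR adjusted p under 0.05, where 0% and 0% of all tested genes were called, with the smallest adjusted p at 0.373 for Mx2. DESeq2 also called 0 members in each direction, against 2.98% of genes higher and 0.397% lower over its table, and limma-voom called 0. At an unadjusted p under 0.05, edgeR had 1 member higher and 0 lower, against 8.60% and 4.75% of all tested genes (1499 higher and 827 lower, or 1156 and 1271 when scaled by library totals alone). The members' own count was 0 higher and 1 lower with library totals and with upper-quartile factors, and 0 and 0 with DESeq2 size factors. The median log2 fold change of the members was 0.03 (TSDP over Control), and the median of all tested genes -0.02. Fold changes were positive in 21 members and negative in 14, a split that turned to 16 and 19 with library totals and to 17 and 18 with upper-quartile factors. Over all tested genes, 47.3% were positive in the main fit. In bulk RNA, fewer cells of a type and less RNA per cell cannot be told apart.

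Most of these differences could be bounded. The 95% interval of the log2 fold change lay inside a 2-fold change in either direction for 29 of the 35 genes. The 6 genes whose interval reached further were Zbp1, Oas2, Oas3, Mx1, Mx2 and Rtp4. The absolute log2 fold change was under 0.2 in 28 genes, and 0 of the 35 exceeded 1, which 10.3% of all tested genes did. The lowest count of any member in any library was 97 reads and the highest 5830. All tested genes include genes with fewer reads, as the filter took a minimum count of 10. The share of 10.3% is therefore not for genes of like counts. Values after ± are standard errors where they follow a log2 fold change, and standard deviations where they follow a mean.

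**Figure D1:**
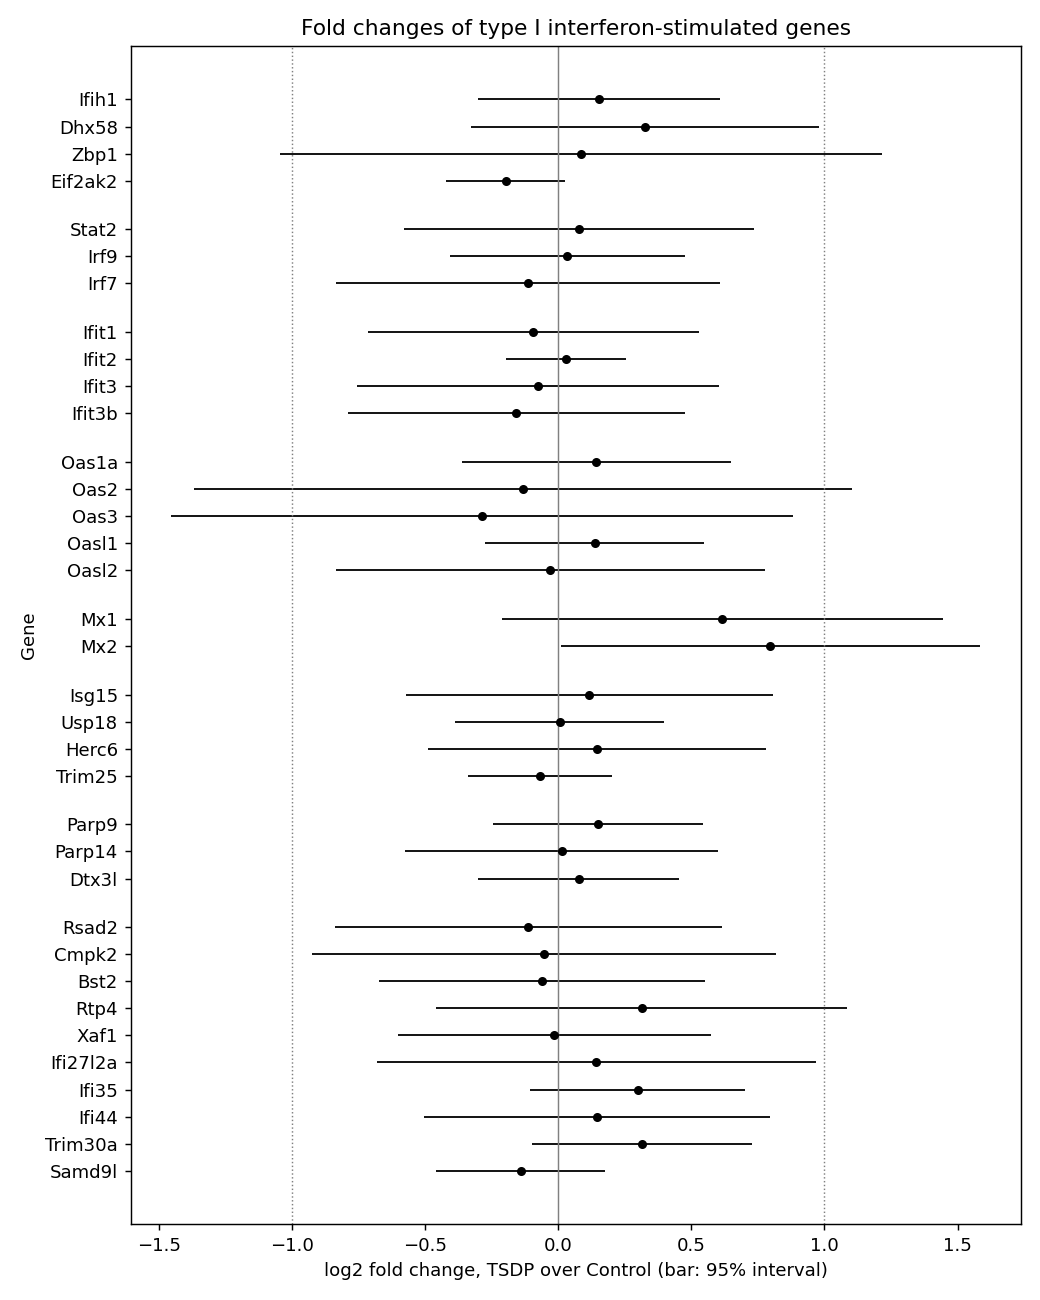
Log2 fold change of each of the 35 genes, TSDP over Control, with its 95% interval (3 libraries a group, edgeR), grouped by role from sensors at the top to other effectors at the bottom; the dotted lines mark a 2-fold change. The points run from -0.29 for Oas3 to 0.80 for Mx2, and 34 of the 35 intervals include 0.

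The 3 values of TSDP lay entirely above those of Control in 3 genes and entirely below in 1, against 13.0% and 8.76% of all tested genes. Mx2, Ifi35 and Trim30a lay above and Eif2ak2 below. With each of the other scalings tried, Mx2 and Eif2ak2 alone kept groups without overlap. As shares of the 35, these counts are no larger than those among all genes.

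The cytosolic sensors overlapped between the groups, apart from Eif2ak2. Ifih1 (ENSMUSG00000026896), which encodes the double-stranded RNA sensor MDA5, had 49.4, 69.6 and 61.2 CPM in TSDP 1, 2 and 5, against 42.7, 58.6 and 60.8 CPM in Control 3, 4 and 5. TSDP 2 was the highest library and Control 3 the lowest, and the groups overlapped. Its log2 fold change was 0.15 ± 0.19, with an interval of -0.30 to 0.61 and an edgeR adjusted p of 0.738. Dhx58 (ENSMUSG00000017830), encoding the related regulator LGP2, had 8.16, 14.5 and 11.3 CPM in TSDP 1, 2 and 5, against 7.11, 11.1 and 8.90 CPM in Control 3, 4 and 5. The log2 fold change of Dhx58 was 0.32 ± 0.27, at an edgeR adjusted p of 0.612. Zbp1 (ENSMUSG00000027514), a sensor of Z-form nucleic acid that can start necroptosis, had 27.7, 57.8 and 31.8 CPM in TSDP 1, 2 and 5, against 16.2, 49.0 and 45.3 CPM in Control 3, 4 and 5. Its values differed 3.01-fold between Control libraries, the widest spread of any member in that group. The difference between the groups was far smaller, at 1.06-fold (log2 fold change 0.09 ± 0.47).

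Eif2ak2 (ENSMUSG00000024079), which encodes PKR, the kinase that stops translation on binding double-stranded RNA, was steady within each group. It had 67.5, 70.1 and 68.3 CPM in TSDP 1, 2 and 5, against 83.4, 74.9 and 78.0 CPM in Control 3, 4 and 5, so every TSDP value was under every Control value. Its means were 68.6 ± 1.36 CPM in TSDP and 78.7 ± 4.33 CPM in Control (SD, n = 3 each), with a log2 fold change of -0.20 ± 0.09, an unadjusted p of 0.0732 and an edgeR adjusted p of 0.410. The log2 fold change lay between -0.27 and -0.17 over all alternatives run and was negative in each. Part of its exons (4.32%) is overlapped by antisense transcripts in GENCODE M21, and whether the counting used strand is not given in the sources used here.

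The transcription factors overlapped between the groups. Stat2 (ENSMUSG00000040033), a subunit of the ISRE-binding complex, had 114, 157 and 120.0 CPM in TSDP 1, 2 and 5, against 78.3, 153 and 139 CPM in Control 3, 4 and 5. The log2 fold change was 0.08 ± 0.27 with an interval of -0.58 to 0.73 (adjusted p by edgeR 0.917). Irf9 (ENSMUSG00000002325), the DNA-binding member of that complex, had 46.5, 54.0 and 45.1 CPM in TSDP 1, 2 and 5, against 35.6, 54.0 and 52.6 CPM in Control 3, 4 and 5. For both genes Control 3 was the lowest of the 6 libraries, and the other 5 overlapped. Irf7 (ENSMUSG00000025498), the factor that amplifies interferon alpha genes, had 26.3, 51.0 and 45.5 CPM in TSDP 1, 2 and 5, against 31.9, 46.8 and 54.2 CPM in Control 3, 4 and 5, with TSDP 1 lowest and Control 5 highest. The log2 fold changes of Irf9 and Irf7 were 0.03 and -0.11, with edgeR adjusted p of 0.945 and 0.882.

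The IFIT genes, whose proteins bind viral RNA ends and hold back its translation, lie side by side but did not vary alike. Ifit1 (ENSMUSG00000034459) had 20.5, 25.2 and 19.8 CPM in TSDP 1, 2 and 5, against 15.0, 26.2 and 28.7 CPM in Control 3, 4 and 5. Ifit3 (ENSMUSG00000074896), which forms complexes with IFIT1, had 25.1, 34.2 and 27.9 CPM in TSDP 1, 2 and 5, against 18.8, 34.0 and 39.0 CPM in Control 3, 4 and 5. In both genes Control 3 was lowest and Control 5 highest, with the TSDP libraries between them. Ifit2 (ENSMUSG00000045932) was nearly level, with 40.3, 43.5 and 42.5 CPM in TSDP 1, 2 and 5, against 39.0, 41.8 and 43.0 CPM in Control 3, 4 and 5. Its highest and lowest libraries differed 1.08-fold within TSDP and 1.10-fold within Control, where Ifit3 differed 1.36-fold and 2.07-fold. The log2 fold changes were -0.09, 0.03 and -0.08 for Ifit1, Ifit2 and Ifit3, with edgeR adjusted p of 0.888, 0.907 and 0.919. Ifit3b, a copy of Ifit3, had 5.39, 5.63 and 5.02 CPM in TSDP 1, 2 and 5, against 4.54, 5.18 and 8.18 CPM in Control 3, 4 and 5. Of the 50-base words in the longest Ifit3 transcript of GENCODE M21, 51.2% also occur in Ifit3b, and 44.5% of those of Ifit3b occur in Ifit3. The log2 fold change of Ifit3b was -0.16 ± 0.26, at an edgeR adjusted p of 0.808. The values of this pair are therefore uncertain, as their reads can be shared between them.

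The OAS family, whose enzymes make the 2′-5′ oligoadenylates that switch on RNase L, held the widest spread within TSDP. Oas2 (ENSMUSG00000032690) had 8.03, 29.4 and 10.99 CPM in TSDP 1, 2 and 5, against 13.7, 24.0 and 15.3 CPM in Control 3, 4 and 5. Oas3 (ENSMUSG00000032661) had 7.29, 26.3 and 16.8 CPM in TSDP 1, 2 and 5, against 14.0, 28.4 and 19.1 CPM in Control 3, 4 and 5. TSDP 1 was the lowest of all 6 libraries in both genes, and TSDP 2 stood 3.66-fold and 3.61-fold above it. In log2 CPM these ranges within TSDP were 1.87 and 1.85. The log2 fold changes of -0.13 ± 0.51 and -0.29 ± 0.48 were small beside them, with edgeR adjusted p of 0.922 and 0.811. Without TSDP 2 they were -0.91 and -0.78, still with 0 members past the threshold. Oas1a (ENSMUSG00000052776) had 14.0, 19.1 and 14.7 CPM in TSDP 1, 2 and 5, against 11.6, 17.6 and 14.0 CPM in Control 3, 4 and 5. Control 3 was lowest and TSDP 2 highest, and the log2 fold change was 0.14 ± 0.21 (edgeR adjusted p 0.780). Its longest transcript shares 57.6% of its 50-base words with Oas1g, so its level is uncertain.

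The oligoadenylate synthase-like genes overlapped between the groups. Oasl2 (ENSMUSG00000029561), an enzymatically active relative, had 50.8, 78.5 and 54.0 CPM in TSDP 1, 2 and 5, against 35.5, 82.2 and 69.5 CPM in Control 3, 4 and 5, a log2 fold change of -0.03 ± 0.33 (adjusted p by edgeR 0.974). Oasl1 (ENSMUSG00000041827), known in mouse to restrain the translation of Irf7, had 21.7, 23.4 and 25.8 CPM in TSDP 1, 2 and 5, against 19.3, 18.7 and 26.5 CPM in Control 3, 4 and 5. Control 3 and Control 4 were its lowest libraries and Control 5 its highest, and its log2 fold change was 0.14 ± 0.17 (edgeR adjusted p 0.742).

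The Mx GTPases, which trap viral components and are defective in most laboratory mouse strains, had the largest fold changes of the members. Mx2 (ENSMUSG00000023341) had 8.13, 15.8 and 7.62 CPM in TSDP 1, 2 and 5, against 5.13, 7.08 and 5.92 CPM in Control 3, 4 and 5. All TSDP values were above all Control values, by a narrow margin in TSDP 1 and TSDP 5 and a wide one in TSDP 2. Its means were 10.50 ± 4.55 CPM in TSDP and 6.04 ± 0.984 CPM in Control (SD, n = 3 each), with a log2 fold change of 0.80 ± 0.33, an unadjusted p of 0.0482 and an edgeR adjusted p of 0.373. Without TSDP 2 the log2 fold change was 0.37, and over all alternatives the adjusted p did not go below 0.211. Mx1 (ENSMUSG00000000386) had 5.92, 9.39 and 4.71 CPM in TSDP 1, 2 and 5, against 2.996, 4.75 and 5.29 CPM in Control 3, 4 and 5, a log2 fold change of 0.62 ± 0.34 at an edgeR adjusted p of 0.467. Its groups overlapped, and without TSDP 2 its log2 fold change was 0.28. The pair share few long words (6.55% of those of Mx2 occur in Mx1).

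The ISG15 system attaches the ubiquitin-like protein ISG15 to other proteins. Isg15 (ENSMUSG00000035692) itself had 8.85, 10.3 and 7.06 CPM in TSDP 1, 2 and 5, against 5.28, 8.62 and 10.2 CPM in Control 3, 4 and 5, and its log2 fold change was 0.12 ± 0.29 (interval -0.57 to 0.81, edgeR adjusted p = 0.875). Usp18 (ENSMUSG00000030107), the protease that removes ISG15 and also blocks the interferon receptor, had 11.4, 13.8 and 12.9 CPM in TSDP 1, 2 and 5, against 10.7, 13.1 and 14.1 CPM in Control 3, 4 and 5. Its log2 fold change of 0.01 ± 0.16 was the nearest to 0 of all members. Herc6 (ENSMUSG00000029798), the main ligase for ISG15 in mouse, had 25.2, 39.5 and 29.7 CPM in TSDP 1, 2 and 5, against 19.5, 34.8 and 31.1 CPM in Control 3, 4 and 5, and 23.8% of its 50-base words occur in Gm45193. Trim25 (ENSMUSG00000000275), a ubiquitin ligase that acts on RIG-I, had 98.5, 111 and 117 CPM in TSDP 1, 2 and 5, against 115, 108 and 120.3 CPM in Control 3, 4 and 5. The groups overlapped in all 4 genes, and Control 3 was the lowest library in 3 of them, the exception being Trim25. Herc6 and Trim25 had log2 fold changes of 0.14 ± 0.26 and -0.07 ± 0.11, and edgeR adjusted p of 0.827 and 0.801.

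In the ADP-ribosylation group, Parp9 (ENSMUSG00000022906) and Dtx3l (ENSMUSG00000049502) encode partners that modify histones and viral proteins, and they are transcribed away from each other from neighbouring starts. Parp9 had 74.5, 84.8 and 75.8 CPM in TSDP 1, 2 and 5, against 55.6, 82.0 and 74.4 CPM in Control 3, 4 and 5. Dtx3l had 118, 127 and 126 CPM in TSDP 1, 2 and 5, against 92.5, 131 and 128 CPM in Control 3, 4 and 5. Parp14 (ENSMUSG00000034422), a mono-ADP-ribosyltransferase, had 94.2, 126 and 92.5 CPM in TSDP 1, 2 and 5, against 71.6, 129 and 109 CPM in Control 3, 4 and 5. Control 3 was the lowest of the 6 libraries in each of the 3 genes, and the log2 fold changes were 0.15, 0.08 and 0.01, with edgeR adjusted p of 0.702, 0.848 and 0.985. Antisense exons overlap 9.40% of the exon bases of Parp9 and 8.00% of those of Dtx3l.

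Among the other effectors, 2 of 10 genes had groups without overlap, both with TSDP higher, where 13.0% of all tested genes were so. Both overlapped with each of the other scalings tried. Ifi35 (ENSMUSG00000010358), which pairs with NMI in interferon-treated cells, had 22.9, 24.9 and 23.5 CPM in TSDP 1, 2 and 5, against 15.3, 22.8 and 20.0 CPM in Control 3, 4 and 5. TSDP 1 and Control 4 nearly touched. The log2 fold change was 0.30 ± 0.17 (adjusted p by edgeR 0.468), and an antisense transcript overlaps 16.8% of its exon bases. Trim30a (ENSMUSG00000030921), a mouse TRIM protein that restrains NF-kappaB signalling, had 45.9, 60.6 and 49.0 CPM in TSDP 1, 2 and 5, against 33.6, 45.6 and 45.7 CPM in Control 3, 4 and 5. TSDP 1 and Control 5 nearly touched there as well, and the log2 fold change was 0.32 ± 0.17 (adjusted p by edgeR 0.459).

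Rsad2 and Cmpk2 are divergent neighbours, of which Rsad2 (ENSMUSG00000020641) encodes viperin, an enzyme that makes a chain-terminating nucleotide, and Cmpk2 (ENSMUSG00000020638) the kinase that supplies its substrate. Rsad2 had 9.78, 22.1 and 13.8 CPM in TSDP 1, 2 and 5, against 18.6, 14.8 and 16.0 CPM in Control 3, 4 and 5. Cmpk2 had 9.83, 21.4 and 18.1 CPM in TSDP 1, 2 and 5, against 11.2, 22.5 and 17.6 CPM in Control 3, 4 and 5. TSDP 1 was the lowest library in both, while Control 3 was the highest Control for Rsad2 and the lowest for Cmpk2. Their log2 fold changes were -0.11 ± 0.30 and -0.05 ± 0.36, with edgeR adjusted p of 0.886 and 0.956.

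Bst2 (ENSMUSG00000046718), encoding tetherin, which holds budding virus at the cell surface, had 63.8, 79.3 and 72.4 CPM in TSDP 1, 2 and 5, against 47.6, 88.6 and 88.8 CPM in Control 3, 4 and 5. Every TSDP value lay under those of Control 4 and Control 5 and above that of Control 3. Xaf1 (ENSMUSG00000040483), a pro-apoptotic inhibitor of XIAP, had 31.7, 43.0 and 30.4 CPM in TSDP 1, 2 and 5, against 24.5, 40.7 and 41.1 CPM in Control 3, 4 and 5. Ifi44 (ENSMUSG00000028037) had 33.5, 60.3 and 45.9 CPM in TSDP 1, 2 and 5, against 30.5, 48.0 and 47.9 CPM in Control 3, 4 and 5. Samd9l (ENSMUSG00000047735), an inhibitor of growth and translation and the member with the highest CPM, had 138, 156 and 156 CPM in TSDP 1, 2 and 5, against 174, 179 and 143 CPM in Control 3, 4 and 5, with TSDP 1 lowest and Control 4 highest. The 4 log2 fold changes were -0.06, -0.02, 0.14 and -0.14, and the edgeR adjusted p ran between 0.648 and 0.982.

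Rtp4 (ENSMUSG00000033355), a chaperone of receptors that is strongly induced by interferon, had 28.1, 37.1 and 23.1 CPM in TSDP 1, 2 and 5, against 13.9, 29.6 and 27.6 CPM in Control 3, 4 and 5, a log2 fold change of 0.31 ± 0.32 at an edgeR adjusted p of 0.681. Rtp4 shares 13.6% of its words with Gm45338. Without Control 3 the value was 0.03. Ifi27l2a (ENSMUSG00000079017), encoding a small membrane protein, had 6.82, 10.2 and 6.33 CPM in TSDP 1, 2 and 5, against 4.45, 9.84 and 6.84 CPM in Control 3, 4 and 5. Control 3 was lowest and TSDP 2 highest there, and the log2 fold change was 0.14 ± 0.34 (edgeR adjusted p 0.872).

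**Figure D2:**
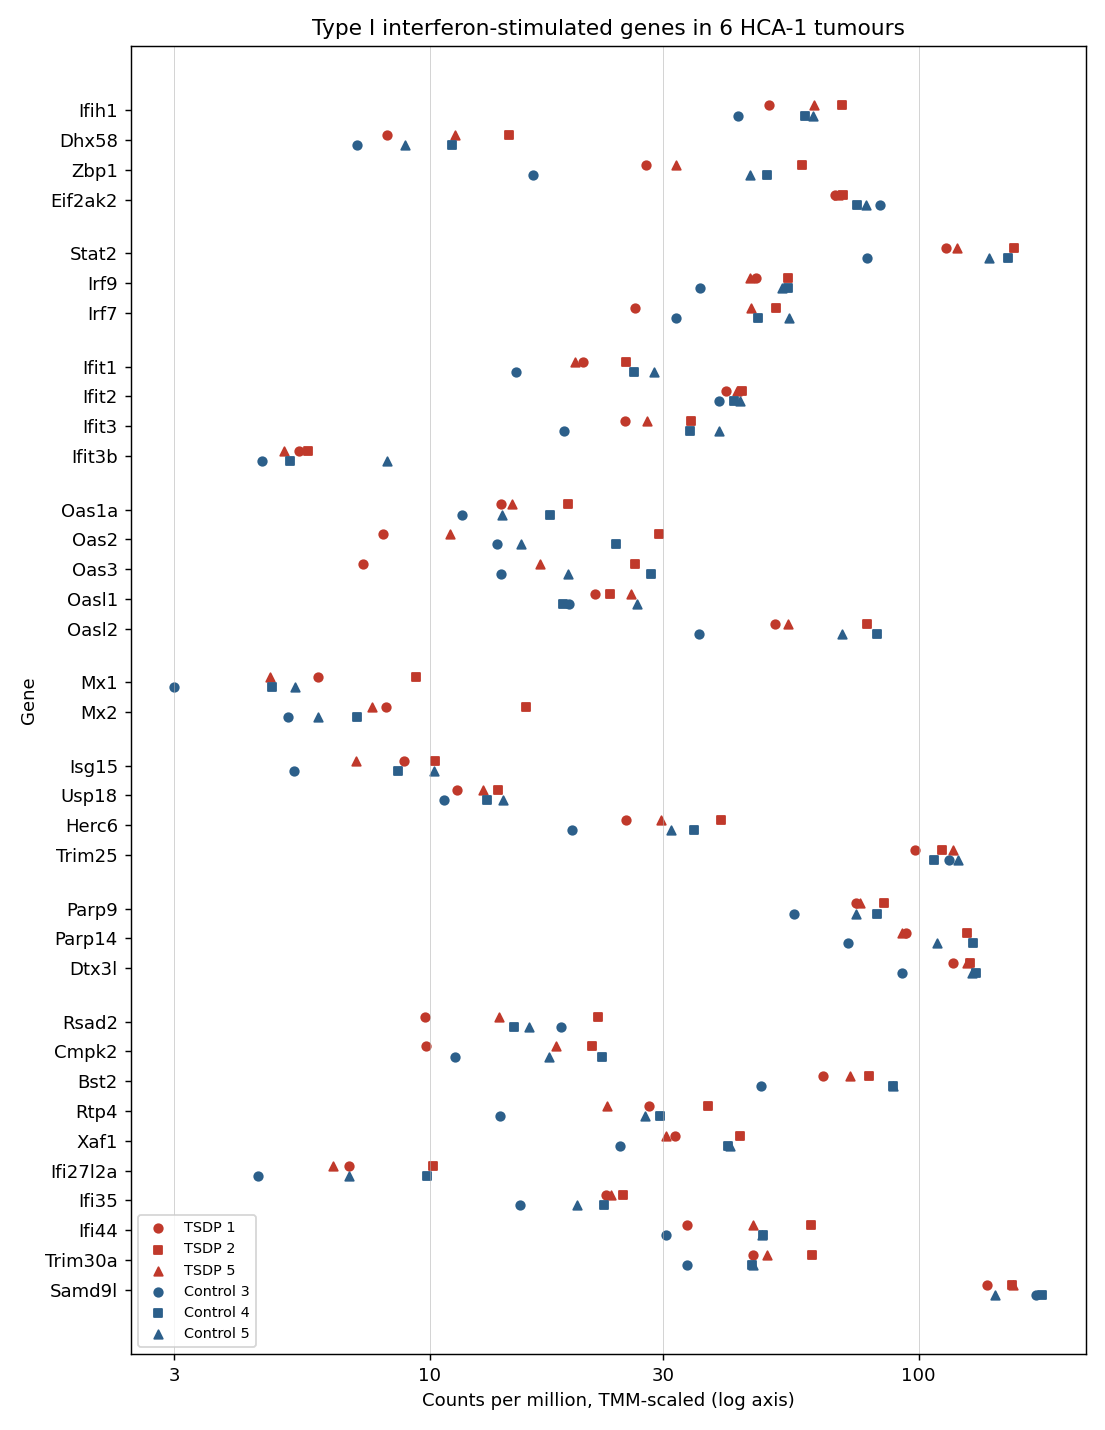
CPM of the 35 genes (log axis) in each of the 6 libraries, TSDP in red above Control in blue within each gene, with 1 symbol per library and genes grouped by role. Control 3 (blue circles) is the leftmost point in 26 of the 35 genes and TSDP 2 (red squares) the rightmost in 19, while the groups separate in 4.

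Divided by the union of exon bases in GENCODE M21, Bst2 had the highest level of the members, at 79.5 CPM per kilobase in TSDP and 83.0 in Control. Samd9l followed at 27.6 CPM per kilobase in TSDP and 30.4 in Control. Stat2, Dtx3l and Trim25 came next, at 21.97, 21.6 and 19.0 CPM per kilobase in TSDP, against 20.8, 20.5 and 19.9 in Control, which is closer together than their spread. Mx1 was lowest, at 1.76 CPM per kilobase in TSDP and 1.15 in Control, and Isg15 stood at 11.5 CPM per kilobase in TSDP and 10.6 in Control.

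In most members, the spread among tumours of a group exceeded the difference between the groups. The distance between the highest and lowest library in log2 CPM had a median of 0.46 over the members within TSDP and 0.75 within Control, against 0.47 in each group over all tested genes. In 32 of the 35 genes, the range within TSDP and the range within Control were each larger than the absolute log2 fold change. A range over single libraries tends to exceed a difference of group means, and the share over all tested genes is not given. The count therefore shows nothing particular to the members. Summed over the list, the members had 1367, 1811 and 1512 CPM in TSDP 1, 2 and 5, against 1219, 1744 and 1655 CPM in Control 3, 4 and 5.

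Control 3 was the lowest Control library in 30 of the 35 genes, where it was so for 37.01% of all tested genes. The 5 exceptions were Eif2ak2, Oasl1, Trim25, Rsad2 and Samd9l. Within TSDP, TSDP 2 was highest in 32 genes and TSDP 1 lowest in 25, where that held for 46.3% and 22.4% of all tested genes. TSDP 2 was the lowest TSDP library in 0 members, against 37.9% of all tested genes. Among the 10 members with an ISRE core in the promoter window, Control 3 was the lowest Control library in 9, among the 15 with a promoter but no core in 11, and among the 10 with no promoter in the table in all 10. The median range within Control was 0.91, 0.57 and 0.81 in log2 CPM for these sets, a description with no test.

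**Figure D3:**
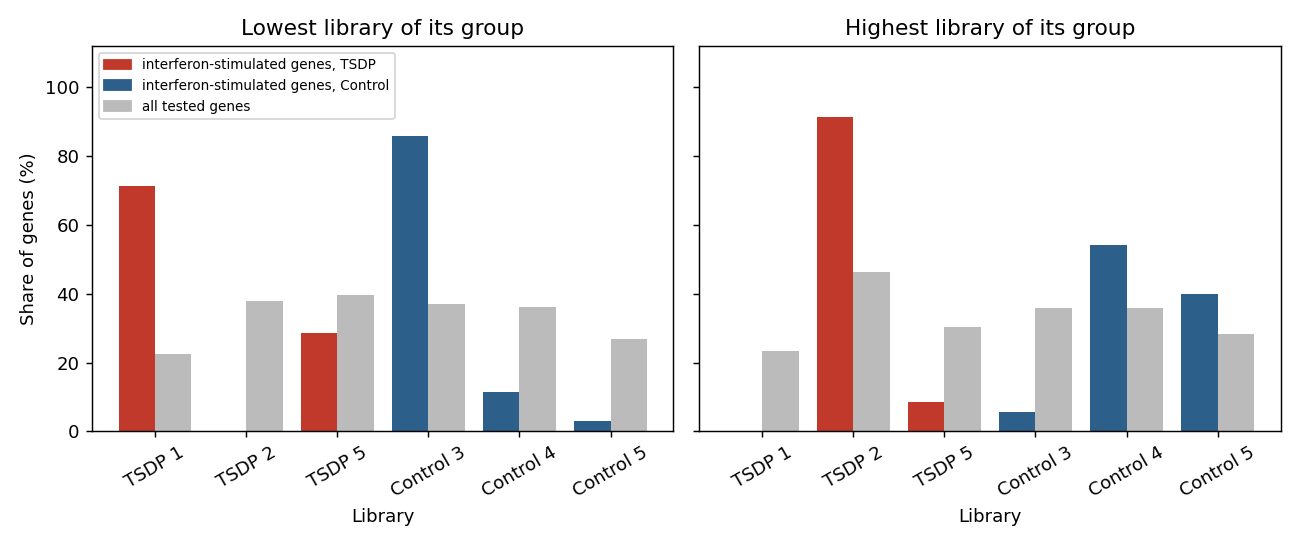
Share of the 35 genes (coloured bars) and of all 17423 tested genes (grey bars) for which each library is the lowest (left panel) or highest (right panel) of the 3 in its group. Control 3 is lowest of Control for 30 of 35 members and 37.01% of all genes, and TSDP 2 highest of TSDP for 32 of 35 members and 46.3% of all genes.

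The direction of the members' median turned with the library left out. It was -0.12 without Control 3, with 7 genes positive and 28 negative, and -0.09 without TSDP 2, with 10 positive and 25 negative. It was 0.17 without Control 4, 0.10 without Control 5, 0.12 without TSDP 1 and 0.08 without TSDP 5. In each of these fits 0 members were called. Without Control 3, the log2 fold changes of the genes with separate groups were 0.68 for Mx2, 0.14 for Ifi35, 0.17 for Trim30a and -0.17 for Eif2ak2.

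The sums of other cell types' markers followed several orders over the libraries, and their part in the ISG differences was not tested. The T and NK cell list of 10 genes summed to 133, 115 and 116 CPM in TSDP 1, 2 and 5, against 70.2, 106 and 89.2 CPM in Control 3, 4 and 5. It was lowest in Control 3, as the ISG sum was. Within TSDP it was highest in TSDP 1 and lowest in TSDP 2, where the ISG sum was lowest in TSDP 1 and highest in TSDP 2. Trbc2, the most abundant gene of the list, had that order, with 53.8, 27.25 and 39.0 CPM in TSDP 1, 2 and 5. Most of the list did not: of its 9 tested genes, TSDP 2 was the highest TSDP library in 6, TSDP 1 in 2 and TSDP 5 in 1. The hepatocyte list, given above, was lowest in Control 3 and highest in TSDP 2. The macrophage list had 1229, 1632 and 1308 CPM in TSDP 1, 2 and 5, against 1373, 1544 and 918 CPM in Control 3, 4 and 5, where Control 5 and not Control 3 was lowest. The fibroblast list had 5314, 8222 and 4304 CPM in TSDP 1, 2 and 5, against 3081, 5497 and 6288 CPM in Control 3, 4 and 5, lowest in Control 3 and highest in TSDP 2. The endothelial list had 251, 378 and 239.9 CPM in TSDP 1, 2 and 5, against 238, 216 and 159 CPM in Control 3, 4 and 5, and the B and plasma cell list 282, 634 and 514 CPM in TSDP 1, 2 and 5, against 164, 291 and 222 CPM in Control 3, 4 and 5. Much of the latter sum was Xbp1, with 184, 250 and 198.5 CPM in TSDP 1, 2 and 5, against 158, 253 and 186 CPM in Control 3, 4 and 5. Of the 9 tested genes of the B and plasma cell list, 6 had all TSDP values above all Control values, where 13.0% of all tested genes did, and 0 were called. The neutrophil list summed to between 19.6 and 29.97 CPM in TSDP and between 18.0 and 53.2 CPM in Control. The erythroid list had 41.7, 52.9 and 33.8 CPM in TSDP 1, 2 and 5, against 658, 51.8 and 15.3 CPM in Control 3, 4 and 5. Plasmacytoid dendritic cells, a main source of interferon alpha, have Siglech as a defining marker, which had 3.45, 5.63 and 2.68 CPM in TSDP 1, 2 and 5, against 0.0309, 1.38 and 1.52 CPM in Control 3, 4 and 5. The other markers of these cells did not all share its direction. Of the 10 listed, 6 had positive and 4 negative log2 fold changes. The list summed to 349, 343 and 354 CPM in TSDP 1, 2 and 5, against 361, 379 and 381 CPM in Control 3, 4 and 5. Most of the sum came from Tcf4 and Runx2, which other cells also express, and it includes Irf8 and the member Bst2. Of all these lists, the markers with 0 counts in a library were Ly6d and Mpo in Control 3, and Hba-a2 in TSDP 1, TSDP 5, Control 4 and Control 5.

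**Figure D4:**
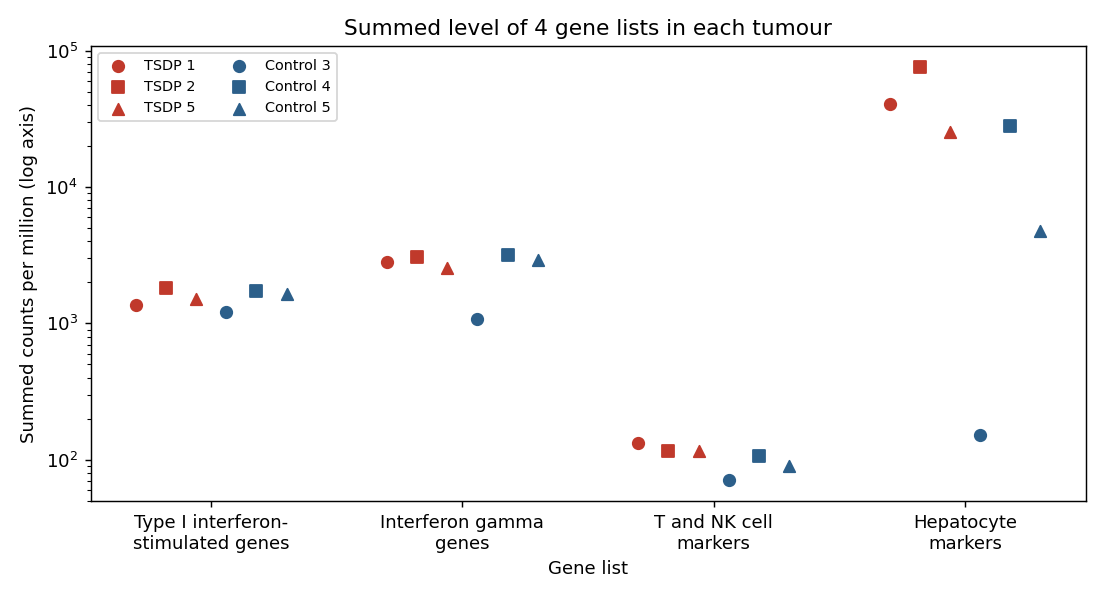
Summed CPM (log axis) of the 35 type I ISGs, 23 interferon gamma genes, 10 T and NK cell markers and 22 hepatocyte markers, of which 21 were matched, with 1 point per library, TSDP in red and Control in blue. Control 3 (blue circle) is lowest in each list drawn, at 1219 CPM for the ISGs and 153 CPM for the hepatocyte markers. The lists drawn are a selection. Control 3 was not the lowest library in the macrophage, endothelial, erythroid and plasmacytoid dendritic cell lists, which are not drawn.

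Transcripts of the interferons themselves were barely counted. Of 20 genes of type I and type III interferons, 0 passed the filter. Ifnb1, which encodes interferon beta, had 0, 0 and 1 reads in TSDP 1, 2 and 5, against 1, 1 and 0 reads in Control 3, 4 and 5. Ifna2 had 1 read in TSDP 2, Ifnab 1 in TSDP 1, and Ifna13 1 each in Control 4 and Control 5. Ifne had 2 reads in TSDP 2, against 1, 4 and 2 in Control 3, 4 and 5. Ifnk had 3 reads in Control 3 and 2 in Control 5, and Ifnz 1 in TSDP 2, 1 in Control 3 and 1 in Control 5. The other 13 had 0 reads in all libraries, where a count of 0 allows up to 3 reads, or 0.0746 to 0.0927 CPM, for counting error only. A difference between the groups was not detectable in these counts. The setting for multi-mapped reads is not given, and shared words were not measured for the interferon genes.

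The type I receptor chains and their kinases were well detected and overlapped between the groups. Ifnar1 had 78.8, 89.7 and 82.0 CPM in TSDP 1, 2 and 5, against 83.9, 82.6 and 77.8 CPM in Control 3, 4 and 5, a log2 fold change of 0.04 ± 0.10 (interval -0.20 to 0.28, edgeR adjusted p = 0.888). Ifnar2 had 40.9, 52.4 and 42.6 CPM in TSDP 1, 2 and 5, against 36.7, 45.8 and 42.5 CPM in Control 3, 4 and 5. Jak1 and Tyk2 had log2 fold changes of -0.13 and 0.14, with edgeR adjusted p of 0.723 and 0.571. Ifnlr1, the receptor chain for interferon lambda, had 6.52, 5.40 and 9.29 CPM in TSDP 1, 2 and 5, against 11.6, 9.90 and 11.01 CPM in Control 3, 4 and 5, with every TSDP value under every Control value. Its log2 fold change was -0.61 ± 0.23, with an unadjusted p of 0.0367 and an edgeR adjusted p of 0.363. Of the 11 genes of receptors and signalling, 0 passed the test in either direction, with a median log2 fold change of 0.04 beside -0.02 over all tested genes.

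Among genes that sense nucleic acid and induce interferon, 19 were tested and 0 were called. Their log2 fold changes were positive in 12 and negative in 7, with a median of 0.15, where 47.3% of all tested genes were positive. The groups did not overlap in 4 with TSDP higher and 1 with TSDP lower, where 13.0% and 8.76% of all tested genes did so. At an unadjusted p under 0.05 there were 3 higher and 0 lower, where 8.60% and 4.75% of all tested genes were. Mavs, the mitochondrial adaptor of RNA sensing, had 51.3, 47.2 and 50.1 CPM in TSDP 1, 2 and 5, against 39.7, 39.4 and 41.1 CPM in Control 3, 4 and 5. The log2 fold change was 0.31 ± 0.09, with an unadjusted p of 0.0121 and an edgeR adjusted p of 0.327. Irf3, the factor that first switches on interferon beta, had 33.2, 37.1 and 30.9 CPM in TSDP 1, 2 and 5, against 24.5, 27.5 and 26.6 CPM in Control 3, 4 and 5, with no overlap between the groups and a log2 fold change of 0.37 ± 0.11 (adjusted p by edgeR 0.334). Tmem173, which encodes STING, had 30.6, 32.8 and 25.6 CPM in TSDP 1, 2 and 5, against 16.0, 25.7 and 17.8 CPM in Control 3, 4 and 5, where TSDP 5 lay under Control 4. Its log2 fold change was 0.58 ± 0.21 (adjusted p by edgeR 0.352). Mb21d1, which encodes the DNA sensor cGAS, had 7.53, 6.79 and 8.82 CPM in TSDP 1, 2 and 5, against 8.46, 8.43 and 6.79 CPM in Control 3, 4 and 5, a log2 fold change of -0.03. Adar, an RNA editor that keeps self RNA from these sensors, had the smallest p of those with negative values, at 58.0, 55.0 and 56.7 CPM in TSDP 1, 2 and 5, against 58.9, 66.2 and 67.4 CPM in Control 3, 4 and 5 and a log2 fold change of -0.18 ± 0.10 (adjusted p by edgeR 0.455).

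Outside the members, 60 further ISGs were tested, of which 42 had positive and 18 negative log2 fold changes (median 0.08) and 0 were called. Over all tested genes 47.3% were positive. Control 3 was the lowest Control library in 45 of the 60, against 37.01% of all tested genes. The smallest p belonged to Lap3, a leucine aminopeptidase, with 152, 167 and 126 CPM in TSDP 1, 2 and 5, against 76.9, 104 and 93.6 CPM in Control 3, 4 and 5, a log2 fold change of 0.70 ± 0.16 and an edgeR adjusted p of 0.326. In the other direction it belonged to Isg20, an RNA exonuclease, with 10.7, 12.2 and 15.9 CPM in TSDP 1, 2 and 5, against 16.8, 21.2 and 18.5 CPM in Control 3, 4 and 5, a log2 fold change of -0.55 ± 0.19 and an edgeR adjusted p of 0.341.

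In the interferon gamma response, Control 3 was the lowest Control library in 22 of 23 such genes, where it was so for 37.01% of all tested genes. Their range within Control had a median of 1.84 in log2 CPM, against 0.75 for the type I members and 0.47 over all tested genes. The 23 genes summed to 2815, 3090.3 and 2563 CPM in TSDP 1, 2 and 5, against 1069.9, 3181 and 2941 CPM in Control 3, 4 and 5. Ifng itself, the cytokine of T and NK cells, had 2.30, 1.07 and 1.20 CPM in TSDP 1, 2 and 5, against 0.463, 1.32 and 1.44 CPM in Control 3, 4 and 5. Cxcl9, a chemokine that draws T cells, had the smallest p of these genes, at 134, 121 and 165 CPM in TSDP 1, 2 and 5, against 25.3, 98.4 and 79.7 CPM in Control 3, 4 and 5 (log2 fold change 1.05 ± 0.47, edgeR adjusted p = 0.397). Nlrc5, the activator of MHC class I genes, had the smallest p of those with negative values, at 109, 106 and 99.6 CPM in TSDP 1, 2 and 5, against 92.2, 134 and 138 CPM in Control 3, 4 and 5 (log2 fold change -0.21 ± 0.17, edgeR adjusted p = 0.606). Of the 23, 21 had positive and 2 negative log2 fold changes (median 0.19), where 47.3% of all tested genes were positive, and 0 were called. Control 3 was the lowest of all 6 libraries in 22 of them, against 26.6% of all tested genes.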

How the data were processed

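Per the labels' protocols, RNeasy was used to isolate RNA from the 6 tumours and KAPA mRNA HyperPrep to build libraries. Trimmomatic 0.38, HISAT2 2.1.0 and featureCounts 2.0.0 appear among the tools in the submitters' processing notes. For build, annotation, strand and multi-mapped reads, the settings were not given in the sources used here. The authors deposited raw read counts for 55536 Ensembl genes, and a table of normalized signal in which each value equals the count over 1 constant per library. The deposited signal was not tested, and that table supplied the symbols. Where a listed gene had no symbol there, its GENCODE M21 ID was used (all 55450 M21 IDs were in the count table).

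Groups came from the sample titles. Each library was taken as a separate tumour and mouse, but only the titles mark the replicates as separate. The p-values therefore cover the spread of these 6 samples, which may be technical. No 2 libraries agreed within counting noise (lowest chi-square per gene 42.8).

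Counts were fitted with the legacy quasi-likelihood F test of edgeR 4.0.16 in R 4.3.3, after filterByExpr at a minimum count of 10 and TMM scaling, with an intercept and the group, two-sided, and Benjamini-Hochberg adjustment over 17423 genes at 0.05. Each standard error was taken as the size of the fold change (log2) over the root of F, and 95% intervals use the t quantile of the fit's degrees of freedom. Log2 CPM for ranges had a prior count of 2. DESeq2 1.42.0, limma 3.58.1 (voom), other scalings and filters, and leaving out each library were alternatives. The steps were also run on simulated counts with 200 changed genes. The share of these recovered is not given here, so the run does not tell how large a change could be missed. Shared reads were gauged from 50-base words of GENCODE M21 transcripts.

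The members, lists and tests were chosen with earlier results of these data known. The genes named are all 35 members, fixed genes of the pathway and, per further list, the gene with the smallest p in each direction. Marker lists held 7 to 22 genes. Ifi35, Trim30a and the other genes without overlap were singled out after their values were seen. The values of 1 pathway gene are not reported here.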

Additional observations from a re-analysis of the deposited data

How the results depend on the processing

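No member was called under any of the 14 alternatives, where the smallest adjusted p of a member was 0.211 (DESeq2, Mx2). Over the whole table DESeq2 called 620 genes and edgeR without the filter on low counts called 1 (Etnppl, no member, named after its value was seen), against 0 as reported, and the causes were not tested. The members whose groups did not overlap numbered 2 in place of 4 with DESeq2 size factors, with library totals and with upper-quartile factors. Leaving out each library moved the median log2 fold change of the members between -0.12 and 0.17, with 0 genes and 0 members called each time, negative without Control 3 and without TSDP 2. Where a group was left with 2 libraries, their spread was estimated with that of the other group. Of the 35 members, 25 changed sign in at least 1 alternative and 10 in none. Of 714 recomputed fold changes of named genes, 2 moved by more than the larger standard deviation of log2 CPM within a group. Both were of Mavs, under library totals and upper-quartile factors. Leaving out 1 library can hardly shift a group mean by that much, so this count does not measure how far those fits differ. Oas2 went from -0.13 to -0.91 without TSDP 2 and was not among the 2. No paired analysis was possible because the groups share only 1 replicate number, 5. P-values over the threshold do not show equal levels.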
